A study of Mus musculus with 6 samples.

Results

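Epithelial cells of DES-exposed uteri fell into 16 clusters in the authors' own clustering of that library, and cluster 15 was the smallest. Its members are the cells that the deposited cell annotation places in DES epithelial cluster 15 and that have a column of counts: 54 of the 4608 clustered DES epithelial cells (1.17%, exact Clopper-Pearson 95% interval 0.882 to 1.53), of 16312 cells in the DES library and 48699 cells in the series. Because this cluster had the second highest level of Olfm4, it was described beside cluster 5 (295 cells), which had the highest.

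CD-1 mice received corn oil (CO) or diethylstilbestrol (DES, a synthetic estrogen) under the skin at 1 mg/kg/day on days 1 to 5 after birth, and their uteri were taken at 12 months of age. The CO mice were in estrus and the DES mice in persistent estrus. Cells came from 1 library per group, made from 2 pooled CO mice and 4 pooled DES mice, and spatial RNA came from 2 CO and 2 DES sections of 1 mouse each. Which pooled mouse a cell came from is not given in the sources used here, so a cluster of 54 cells and the cells of 1 mouse cannot be told apart.

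The uterine epithelium consists of a luminal sheet that faces the uterine cavity and of glands that open into it. In estrus the luminal cells respond to estrogen with abundant small proline-rich proteins (the Sprr2 family, cross-linking proteins of surface epithelia) and secreted defence proteins such as lipocalin 2 (Lcn2). Olfm4 encodes olfactomedin 4, a secreted glycoprotein known from intestinal crypt cells and from several epithelial cancers. Neonatal DES exposure is a classical model in which uterine adenocarcinoma appears in adult mice.

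The 54 cells carried 2819490 UMIs (unique molecular identifiers, 1 per captured RNA molecule). Their depth had a median of 46953 UMIs per cell (range 7108 to 139561), against 20596 in cluster 5 and 24484 in the other 15 clusters together, so levels are given as CPM, a gene's UMIs summed over a group of cells and scaled to a common total. The intervals beside them are exact Poisson 95% intervals and cover counting error only. Mitochondrial genes took a median of 11.4% of UMIs in cluster 15 and 11.6% in the other clusters. Of 180 barcodes present in both libraries, 0 belonged to cells of cluster 15. With 1 library per group, and clusters formed on the same counts, no test was possible between cells, and every cell comparison here is a description.

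The cells were epithelial by their markers. Epcam, the epithelial adhesion molecule, stood at 853 CPM, Cdh1 (E-cadherin) at 195 and Krt8 (a simple epithelial keratin) at 1000, and each had UMIs in 54 of 54 cells. All 9 epithelial identity genes were within 2-fold of the other DES clusters, with a median log2 ratio of 0.09. Markers of stromal, myeloid, lymphocyte and mesothelial cells were low. The summed level of the stromal markers was 105 CPM (98.1 to 245 in the other clusters) with the stromal gene Dpt at 0 UMIs, that of the myeloid markers 53.6 CPM (51.7 to 99.1), that of the lymphocyte markers 7.80 CPM (6.73 to 13.8) and that of the mesothelial markers 22.3 CPM (25.1 to 44.1). Krt5, a keratin of basal and stratified cells, was at 19.9 CPM in cluster 15, 76.9 in the other clusters and 645 in cluster 5. The 9 listed stratified and basal markers did not move together. They summed to 78.7 CPM, rank 7 of 16 (median of the others 57.4 CPM, and 765 CPM in cluster 5). Of the 2 with at least 20 CPM in either group, 1 was at least 2-fold higher than in the other clusters and 1 lower (2.11% and 1.39% of all genes).

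The label names S100g, Pla2g2e, Ifi203 and Olfm4. The first 3 were at their highest of the 16 clusters in cluster 15, and Olfm4 was at its second highest, but the 4 genes were spread over the cells very differently, and the first places of S100g and Ifi203 each rested on 1 cell. S100g, a small calcium-binding protein of calcium-transporting epithelia, was at 1037 CPM in cluster 15, 563 in the other clusters and 321 in cluster 5, and 1 cell held 33.6% of its UMIs. Without that cell S100g was at 716 CPM, below cluster 2 (878 CPM) and cluster 13 (824 CPM). In CO cells S100g was at 72.6 CPM in the luminal clusters and 7182 CPM in the gland clusters. Pla2g2e, a secreted phospholipase A2, was at 181 CPM in cluster 15, 80.7 in the other clusters, 44.2 in cluster 5 and 121 in CO luminal cells, with UMIs in 53 of the 54 cells. Ifi203, an interferon-inducible DNA-binding protein of the PYHIN family, was at 60.3 CPM against 16.9 in the other clusters, while cluster 5 had 58.0 and CO luminal cells 120. A single cell held 34.7% of its UMIs, and without that cell the level was 40.1 CPM, below cluster 5. Pla2g2e was thus the most evenly carried of the 4.

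Olfm4 (chr14:79984081-80023139, + strand, mm10) was concentrated in a few cells. It was at 257 CPM (239 to 277) in cluster 15, 685 CPM in cluster 5, 89.1 in cluster 14, 56.8 in cluster 1 and 31.2 in cluster 7, and it was at 1.08 CPM in CO luminal cells. The intervals of these clusters did not overlap. Within cluster 15, 35 of 54 cells held no Olfm4 UMI, the top cells held 295 and 216 UMIs, and 6 cells held 691 of the 726 UMIs (95.2%) with 16.7% of all UMIs of the cluster. With the top cell left out the level was 157 CPM and the rank stayed the second, with both top cells left out it was 81.3 CPM and the third, and with all 6 left out it was 14.9 CPM and the rank was 7 of 16. The place of cluster 15 behind cluster 5 therefore rested on these cells.

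**Figure D1:**
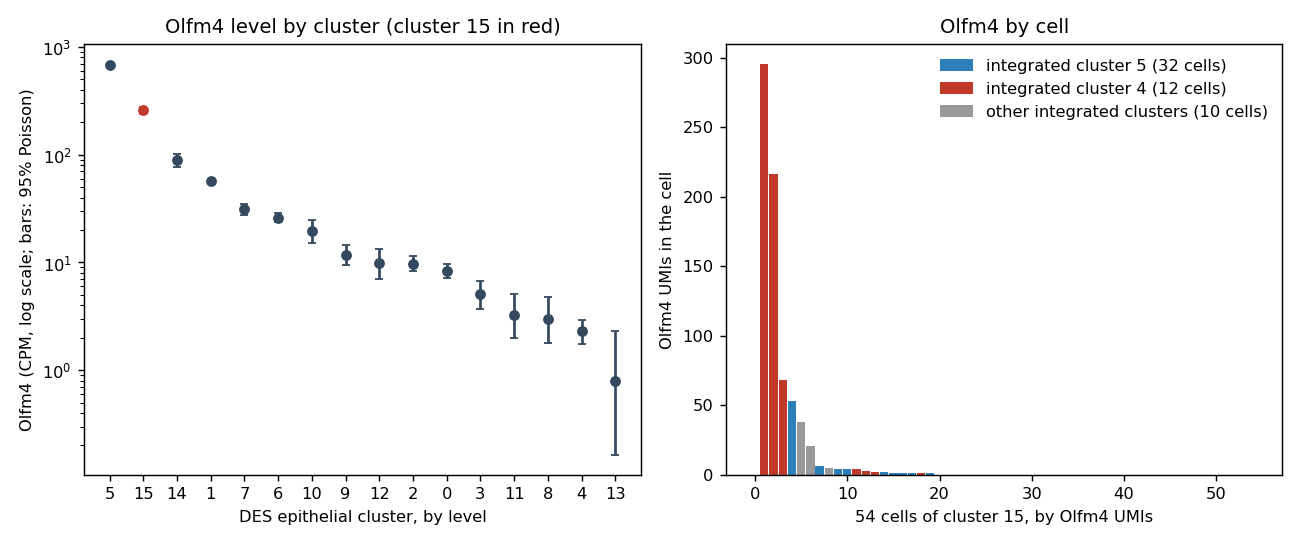
Left, Olfm4 level (CPM, log axis) in each of the 16 DES epithelial clusters with exact Poisson 95% intervals for counting error, cluster 15 in red. Right, Olfm4 UMIs in each of the 54 cells of cluster 15, colored by the authors' joint clustering of CO and DES cells. The level of 257 CPM comes mostly from 6 cells at the left, with 295 UMIs in the highest.

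Shares of cells showed the same concentration. After each cell was thinned to 3000 UMIs, Olfm4 was detected in 6 of 54 cells of cluster 15 (11.1%, 4.19 to 22.6), in 47.9% of cluster 5, in 6.504% of the other clusters and in 0.193% of CO luminal cells. In DES mesothelial cells, which line the outer surface of the organ and should lack the gene, the share was 1.43% (median depth 12329 UMIs before thinning). Without thinning the share was 35.2% in cluster 15, 43.3% in cluster 1 and 71.2% in cluster 5, so that cluster 15 was the third. The thinned shares of cluster 1 (10.7%) and cluster 14 (8.96%) lay inside the interval of cluster 15, so by share of cells the second place was not distinguishable at this depth. S100g was detected in 63.0% of thinned cells of cluster 15, 54.2% of the other clusters and 6.21% of mesothelial cells. Pla2g2e was detected in 33.3% of thinned cells of cluster 15, 20.95% of the other clusters and 0.978% of mesothelial cells. Ifi203 was detected in 14.81% of thinned cells, but in 34.6% of mesothelial cells, which express it at 154 CPM and so give no background for this gene.

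Genes that the study names for the Olfm4-high cluster 5 are given next. Rad51b, a recombination repair protein, was at 51.1 CPM in cluster 15 (rank 15 of 16), 532 in cluster 5 and 112 in the other clusters. The study names Pik3r1 and Trp53 for their reduced expression in cluster 5 relative to its other DES clusters. Pik3r1, the regulatory subunit of phosphoinositide 3-kinase, was at 154 CPM against 158 in cluster 5, and Trp53 was at 126 CPM against 80.5. Across the 16 clusters, the 5 genes whose levels were ordered most like Olfm4, of 3700 genes with at least 50 CPM in any cluster, were Plscr1 (Spearman's rho 0.938), Anxa3 (0.932), Aqp4 (0.915), Sp110 (0.903) and Mgat4a (0.900), where the 16 points are clusters of 1 library. Aqp4, a water channel, was at 25.2 CPM in cluster 15 and 87.8 in cluster 5.

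Cluster 15 differed from the other DES clusters by 126 genes at least 2-fold higher, of 5985 genes with at least 20 CPM in either group (2.11%), and by 83 genes at least 2-fold lower (1.39%). The median log2 ratio over all 5985 genes was -0.00. The genes named here were taken from those with at least 50 CPM in either group. The higher ones are the 15 highest ratios carried by at least 25% of the cells, with no cell holding over 25% of the UMIs. The lower ones are the 10 lowest ratios carried by at least 25% of the cells of the comparison group. Among genes with at least 50 CPM, the rule on cells left out 11 with ratios above the last named. Among them Chil4 had UMIs in 3 cells only, while Clu (46 cells, ratio 9.43), Ctsl (47 cells, ratio 7.39), Postn (36 cells, ratio 7.29) and Il1f6 (26 cells, ratio 13.7) were left out only because 1 cell held over 25% of their UMIs.

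Of the Sprr2 family, Sprr2a3, Sprr2b, Sprr2d and Sprr2f were at 20 CPM or more in cluster 15, and its other members in the table were at 0 to 0.355 CPM. Sprr2b was at 1123 CPM in cluster 15 and 21.5 in the other clusters, a ratio of 52.2 (49.7 to 54.8), with UMIs in 46 of 54 cells, and it was at 12.06 CPM in cluster 5 and 262 in CO luminal cells. Its highest cell held 23.9% of its UMIs, and the ratio without that cell was 41.1. Sprr2b was detected in 51.9% of thinned cells of cluster 15, 3.91% of the other clusters, 31.0% of CO luminal cells and 0.661% of mesothelial cells. Sprr2a3 was at 907 CPM against 102 in the other clusters (ratio 8.87) and 1212 in CO luminal cells. Sprr2f, the most abundant member, was at 9935 CPM in cluster 15, 2903 in the other clusters, 5845 in cluster 5 and 16360 in CO luminal cells, with UMIs in every cell of cluster 15. Sprr2d was at 53.6 CPM against 1.28, and 1 cell held 39.7% of its UMIs. These genes are closely related neighbours on chromosome 3, so the assignment of reads between them is uncertain.

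Sprr2b, Sprr2d and Sprr2f are shown as the 250 bases before their RefSeq start (GRCm38.p6), on the + strand, because these members differ widely in level while the same pair of motifs stands at nearly the same places before their starts. The window of Sprr2a3 held neither motif. The windows are chr3:92316455-92316704 for Sprr2b, chr3:92338890-92339139 for Sprr2d and chr3:92364937-92365186 for Sprr2f, upstream of exon 1 of each gene. In the GENCODE M21 annotation of the same assembly the gene bodies begin at 92316620, 92339140 and 92365187, so the end of the Sprr2b window lies inside a longer annotated transcript. Capitals mark the AP-1 motif TGANTCA and the octamer motif ATGCAAAT, searched on both strands.
Sprr2b: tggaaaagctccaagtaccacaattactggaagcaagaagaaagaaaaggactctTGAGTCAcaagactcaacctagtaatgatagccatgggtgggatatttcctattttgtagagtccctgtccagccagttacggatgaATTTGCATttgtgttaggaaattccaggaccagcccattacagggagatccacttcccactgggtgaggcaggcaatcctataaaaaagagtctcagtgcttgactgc
Sprr2d: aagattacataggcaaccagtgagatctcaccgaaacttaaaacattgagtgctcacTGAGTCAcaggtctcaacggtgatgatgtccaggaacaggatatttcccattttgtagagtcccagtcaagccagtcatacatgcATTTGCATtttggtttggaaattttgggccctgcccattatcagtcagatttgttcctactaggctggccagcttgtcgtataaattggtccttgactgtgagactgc
Sprr2f: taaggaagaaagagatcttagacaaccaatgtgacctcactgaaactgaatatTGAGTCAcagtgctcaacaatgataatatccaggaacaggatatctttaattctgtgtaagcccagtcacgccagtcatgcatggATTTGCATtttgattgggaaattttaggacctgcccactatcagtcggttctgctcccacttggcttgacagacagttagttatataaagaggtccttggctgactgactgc
The AP-1 match lay 195 to 189 bases before the start in Sprr2b, 193 to 187 in Sprr2d and 197 to 191 in Sprr2f, and the octamer match, read on the other strand, 108 to 101, 108 to 101 and 112 to 105 bases before it. Of all 32851 windows of the same length, 6.75% held the AP-1 motif and 1.60% the octamer motif, which was added to the search after these sequences had been seen. Aligned without gaps, the windows of Sprr2b and Sprr2d were identical at 54.4% of 250 positions, those of Sprr2b and Sprr2f at 52.4% of 246 and those of Sprr2d and Sprr2f at 62.6% of 246. Of the 15 named higher genes, 12 were in the promoter table. Among these, 1 window held the AP-1 motif, 3 held the octamer motif (Sprr2b, Spp1 and Egln3), 2 held the STAT motif TTCNNNGAA (Sprr2a3 and Steap4; 7.02% of all windows) and 0 held the full palindromic estrogen response element (0.0639% of all windows). A match describes letters in a window and is not a binding site.

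Other named higher genes had varied roles. Cxcl5, a chemokine that attracts neutrophils, was at 244 CPM in cluster 15 and 2.28 in the other clusters, a ratio of 107 (94.1 to 122), and had UMIs in 26 of 54 cells. Spp1 (osteopontin, a secreted phosphoprotein) was at 201 CPM against 3.27, with UMIs in 23 cells. It was at 108 CPM in CO luminal cells and 212 CPM in the CO gland clusters. After thinning, Cxcl5 was detected in 18.5% of cells of cluster 15 (9.25 to 31.4), 0.488% of the other clusters and 0.0529% of mesothelial cells, and Spp1 in 11.1%, 0.910% and 0.793%. Ccl28, a mucosal chemokine, was at 83.0 CPM against 21.7 with UMIs in 43 cells, and Tnfaip2, induced by tumor necrosis factor, was at 98.95 CPM against 11.3 with UMIs in 36 cells. Steap4, a metalloreductase, was at 112 CPM against 17.3, and Hdc, the enzyme that makes histamine, at 82.6 CPM against 20.5. Cebpd, a transcription factor of acute inflammation, was at 127 CPM against 36.3.

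The remaining named higher genes were carried by most cells. Plac8, a small cysteine-rich protein, was at 2005 CPM against 365 (ratio 5.49) with UMIs in 53 cells, and Ly6a (Sca-1, a membrane-anchored protein) at 1322 CPM against 368 (ratio 3.59) with UMIs in all 54. Ncoa7 was at 175 CPM against 38.8 with UMIs in 50 cells and was at 358 CPM in CO luminal cells. Egln3, an oxygen-sensing prolyl hydroxylase, was at 62.1 CPM against 7.54, Hk2 (hexokinase 2, the entry enzyme of glycolysis) at 51.1 CPM against 11.01, and Glipr2 at 53.6 CPM against 10.4. Lcn2, not among the named 15, was at 6253 CPM against 2594 in the other clusters and 8186 in CO luminal cells.

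Lower in cluster 15 were Crh (corticotropin-releasing hormone, 16.7 against 145 CPM), Lypd8 (a mucosal defence protein, 20.9 against 158), Lypd2 (45.4 against 193), Upk3bl (18.44 against 92.9), Tmem14c (28.7 against 162), Serpinb7 (48.2 against 191) and Dhrs3, a retinaldehyde reductase (49.7 against 175). Krt5, given above, was among them. The immediate early genes Fos (50.01 against 186 CPM) and Cyr61 (13.8 against 64.8 CPM) completed the 10. Not all of these were low by cluster: Fos ranked 11, Lypd8 10, and Cyr61 and Krt5 9 of the 16 clusters, while Tmem14c, Upk3bl, Lypd2 and Dhrs3 were at their lowest in cluster 15. Of the list of 12 immediate early genes, 0 were at least 2-fold higher (2.11% of all genes) and 4 at least 2-fold lower (1.39%) than the pooled other clusters, with a median log2 ratio of -0.84. The pool holds cluster 9 with a summed level of 10031 CPM, and by cluster the list stood at 1071 CPM in cluster 15, rank 5 of 16, above the median of 925 CPM in the others.

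**Figure D2:**
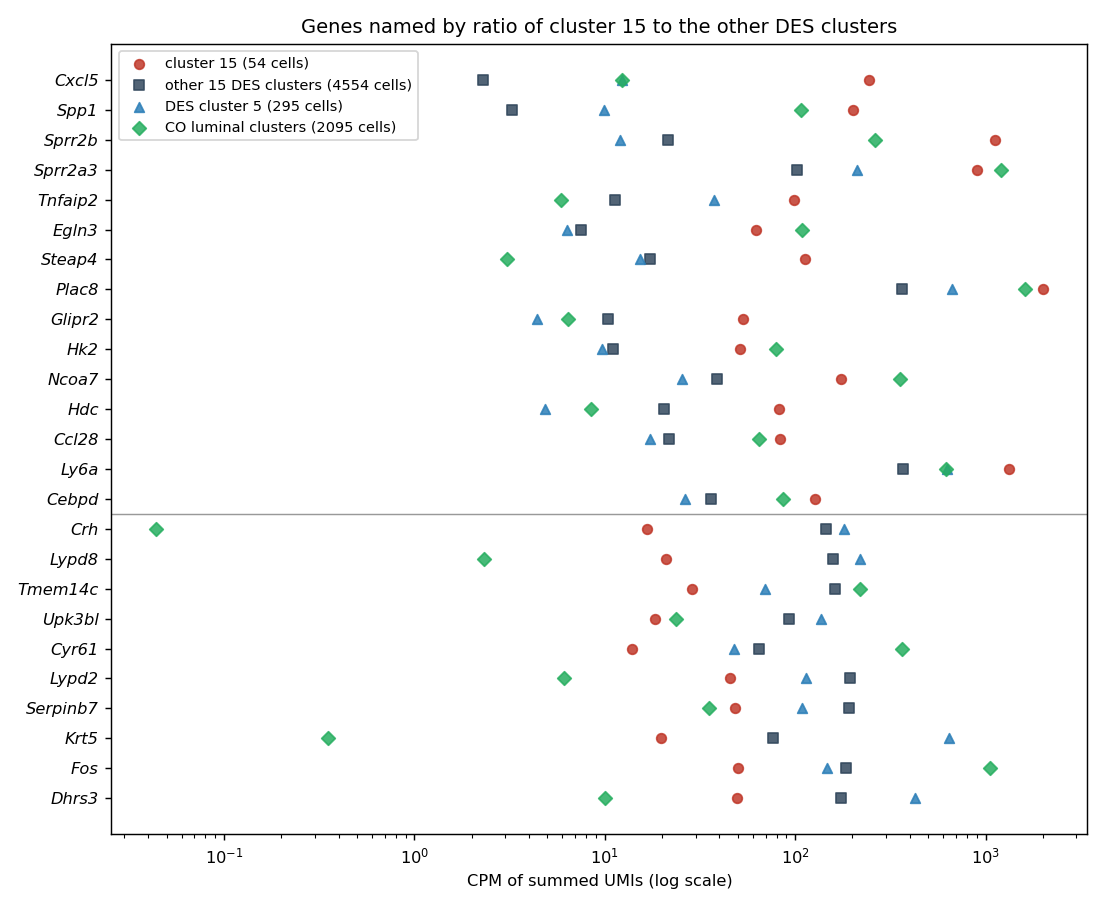
Level (CPM of summed UMIs, log axis) of the 15 named higher genes (above the line) and the 10 named lower genes (below it) in cluster 15, the other 15 DES clusters, cluster 5 and the CO luminal clusters. Sprr2b stood at 1123 CPM in cluster 15 against 21.5 in the other clusters and 262 in CO luminal cells.

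Of the 15 named higher genes, 4 (Sprr2a3, Egln3, Hk2 and Ncoa7) were higher in CO luminal cells than in cluster 15. Spp1 (212 CPM), Hdc (212 CPM), Cebpd (596 CPM) and Hk2 (78.8 CPM) were higher in the CO gland clusters than in cluster 15. Over 5658 genes, the levels in cluster 15 had a Spearman correlation of 0.857 with those of CO luminal cells, the highest of the 16 clusters, followed by cluster 1 (0.855), cluster 9 (0.844), cluster 6 (0.840) and cluster 5 (0.829), with a lowest value of 0.763. Among control cells the closest by this measure was CO cluster 12, which the study proposes as stem cells, at 0.867, little above CO cluster 1 (0.863), and the CO gland clusters were at 0.771, rank 3 of the 16 DES clusters (median of the others 0.753). With the other DES clusters, the correlation of cluster 15 was highest for cluster 6 (0.926) and lowest for cluster 14 (0.844). It was 0.896 with cluster 5. Each value is taken across genes of 1 pair of groups, and genes are not independent replicates. In the correlation with CO luminal cells, clusters 15 and 1 differed by little. The genes that the study listed as specific to CO luminal cells summed to 236326 CPM in cluster 15, also the highest, against 235953 in cluster 1 and a median of 196449. Those listed as specific to CO glands summed to 195828 CPM in cluster 15, the lowest (198446 to 245271 in the others), while the developing gland genes, mostly Prap1 and S100g, summed to 6063 CPM, rank 3 of 16 (median of the others 1703 CPM). The study chose its CO-specific lists on the CO library used here, so they are not independent of the CO levels. Of 841 luminal-list genes measured at 20 CPM or more, 43 were at least 2-fold higher in cluster 15 than in the other clusters and 9 lower (median log2 ratio 0.10), and of 426 gland-list genes 11 were higher and 17 lower (median -0.13), beside 2.11% of all genes higher and 1.39% lower. Against cluster 5 the luminal list did not lean the same way, with 43 of 853 genes higher and 60 lower (median -0.02), and the gland list had 34 of 428 higher and 36 lower (median -0.02). The list of CO cluster 12 genes had 27 of 261 higher and 4 lower than in cluster 5 (median 0.26), and 2 of 265 higher and 4 lower than in the other clusters (median 0.04). The shares against cluster 5 stand beside 3.53% of all genes higher and 4.41% lower.

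Against cluster 5, 213 of 6035 genes were at least 2-fold higher in cluster 15 (3.53%) and 266 at least 2-fold lower (4.41%), with a median log2 ratio of 0.00. Sprr2b had the highest ratio of the named genes, 93.2 (76.8 to 114), and Spp1 (201 against 9.92 CPM), Cxcl5 (244 against 12.4 CPM), Hdc (82.6 against 4.85 CPM), Glipr2 (53.6 against 4.39 CPM), Egln3, Steap4 and Ncoa7 were again among the 10 highest. They were joined by AC167121.2 (429 against 41.6 CPM) and Thrsp, a regulator of fatty acid synthesis (68.1 against 8.45 CPM). Thrsp was at 59.2 CPM in the other 15 clusters together and ranked 6 of 16 in cluster 15, and AC167121.2 was at 296 CPM in them and ranked 3. The 10 named lower genes were led by Tff1, a mucosal trefoil peptide, with 0 UMIs in cluster 15 against 191 CPM in cluster 5. With cluster 15 set to the floor of 3 UMIs, the ratio of Tff1 was 0.00557, and the interval from its 0 UMIs was 0 to 0.00685. The others were Ccl6 (4.97 against 330 CPM), Krt5, Ramp2 (20.9 against 268 CPM), the uroplakin Upk1a (33.3 against 421 CPM), Dach2 (4.97 against 54.8 CPM), Crh, Lypd8, Rad51b and Agr2 (13.5 against 133 CPM). Several were not low by cluster: Ramp2 ranked 6, Ccl6 7, and Upk1a and Agr2 9 of 16 in cluster 15. Tff1 ranked 13, Rad51b 15 and Dach2 16. In the other 15 clusters together, cluster 5 among them, Ccl6 was at 22.6 CPM, Ramp2 at 39.0 and Upk1a at 69.8. Kap (8.87 against 167 CPM) also had a low ratio but had UMIs in 17.3% of cluster 5 cells, under the 25% required.

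Gene lists were then read over their members with at least 20 CPM in either group, against the 2.11% of all genes that were 2-fold higher and the 1.39% lower. Of 13 MHC genes, which present antigens to T cells, 5 were at least 2-fold higher than in the other clusters and 0 lower (median log2 ratio 0.91). The summed level of all 15 listed MHC genes, 5558 CPM, was the highest of the 16 clusters (1094 to 5440 in the others). Cluster 7 was at 5440 CPM and cluster 5 at 4108 CPM. The 5 were the class I gene H2-K1 (1332 against 648 CPM), the class II genes H2-Aa (178 against 69.1), H2-Ab1 (199 against 70.4) and H2-Eb1 (110 against 41.8), and the class II chaperone Cd74 (1380 against 526). By cluster H2-Aa, H2-Ab1 and H2-Eb1 each ranked 3 of 16. H2-K1 was at its highest in cluster 15, with a ratio of 1.99 without its top cell. H2-Ab1 was at 7.51 CPM in CO luminal cells. Of 11 secreted mucins, trefoil and defence genes, 5 were higher and 1 was lower (median 0.79), the higher ones being Muc4 (138 against 62.8 CPM), Pigr, which carries antibodies across epithelia (462 against 207), Lcn2, Wfdc18 and Defb1 (30.1 against 0.769). Defb1 had UMIs in 11 cells with 36.5% of them in 1 cell, and 1 cell held 30.7% of the Wfdc18 UMIs, without which its ratio fell from 4.12 to 2.96. Against cluster 5 this list did not lean the same way, with 2 of 13 genes higher and 4 lower (median 0.04), beside 3.53% and 4.41% of all genes. Wfdc18 was at 137 CPM in cluster 15 against 300 in cluster 5. The summed level of the list was 15449 CPM, below 16209 CPM in cluster 1. Of 10 steroid receptor and estrogen-responsive genes, Lcn2 and Sprr2f were higher and Clca1 lower (732 against 1720 CPM, and 5921 in cluster 5), and the estrogen receptor gene Esr1 was at 146 CPM, the lowest of the 16 clusters, against 219 in the others. Of 8 luminal genes named by the study, 3 (Ifi203, Pla2g2e and Lrmp) were higher and 0 lower (median 0.57). Against cluster 5, 1 of the 8 was higher and 3 were lower (median 0.03), namely Lrmp (36.9 against 111 CPM), Itgam (61.0 against 164 CPM) and Lrrc26 (79.1 against 196 CPM), and the summed level was 506 CPM in cluster 15, rank 3 of 16, and 647 CPM in cluster 5.

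Other lists showed few such genes. None of 14 interferon-stimulated genes was past 2-fold (median log2 ratio 0.31), and neither was any of 9 p53 targets, 5 cell cycle genes, 4 calcium transport genes or 14 uterine epithelial transcription factors (median -0.29). Of 12 Wnt pathway genes 1, Tcf7, was at least 2-fold lower and 0 higher (median -0.27), and of 12 PI3K and AKT pathway genes 1, Irs1, was lower (median -0.02). The summed level of the PI3K and AKT list was 657.9 CPM in cluster 15, the lowest of the 16 clusters, though the next was at 658.7 CPM. The mature gland genes Spink1, Prss28 and Prss29 were at 0 UMIs in cluster 15, as in all 4554 cells of the other clusters.

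Within cluster 15 the cells differed by their place in the authors' joint clustering of CO and DES epithelium. Of the 54 cells, 32 (59.3%) fell in integrated cluster 5, 12 (22.2%) in integrated cluster 4 and 10 in others. Integrated cluster 5 is not DES cluster 5: it held 459 cells of DES cluster 2 and 1 cell of DES cluster 5. Most cells of DES cluster 5 (207 of 295) fell in integrated cluster 10, and integrated cluster 4 held 456 cells of DES cluster 1 and 48 of DES cluster 5. The 12 cells in integrated cluster 4 held 589 of the 726 Olfm4 UMIs (877 CPM, UMIs in 7 cells), the 32 cells in integrated cluster 5 held 73 (43.5 CPM, 9 cells) and the other 10 held 64 (136 CPM, 3 cells). S100g was at 2891 CPM in the 12 cells and 453 in the 32, and at 1699 CPM in the 12 without its top cell. Ifi203 was at 149 and 24.5 CPM, but 1 cell held 59 of the 100 UMIs of the 12 cells, and without it the level was 66.1 CPM. Olfm4 itself was at 486 CPM in the 12 cells and 12.3 CPM in the 32 without the top cell of each. Spp1 was at 511 and 93.6 CPM (356 and 53.3 without the top cells) and Cxcl5 at 497 and 146 CPM (323 and 98.2). Sprr2a3 (1496 and 314 CPM), Glipr2 (127 and 32.8) and Egln3 (104 and 29.2) were also higher in the 12 cells. So were Sprr2f (14267 and 6805 CPM), Plac8 (3238 and 1557), Ly6a (2122 and 950) and Steap4 (189 and 95.4). These values include the top cell of each gene. Other genes differed less or the opposite way. Ncoa7 was at 180 and 174 CPM and Pla2g2e at 207 and 156. Lower in the 12 cells were AC167121.2, at 53.6 CPM against 648 in the 32, and Ccl28, at 46.2 against 104 CPM.

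The 6 cells with most Olfm4 lay in integrated clusters 4 (3 cells), 5 (1 cell) and 7 (2 cells). Compared with the other 48 cells, Sprr2f was at 18476 against 8218 CPM, Plac8 at 4676 against 1468, Spp1 at 665 against 108 and Cxcl5 at 731 against 146. S100g was at 2816 against 679 CPM and Sprr2b at 2814 against 783, but in each case 1 cell held most of the UMIs of the 6, and without that cell the levels in the remaining 5 were 950 CPM for S100g and 1524 CPM for Sprr2b. Without their own top cell Sprr2f was at 13246, Plac8 at 3334, Spp1 at 459 and Cxcl5 at 509 CPM. Pla2g2e (227 against 172 CPM), Ncoa7 (167 against 176 CPM) and Rad51b (59.3 against 49.4 CPM) were at similar levels in both. Of the 11 Mki67 UMIs of the cluster, a marker of dividing cells, 9 were in these 6 cells, but of the 46 UMIs of Top2a, another such marker, 16 were, in 2 of the 6. Without these 6 cells, 96 genes were at least 2-fold higher than in the other clusters, of which 87 were also higher with all 54 cells. This exclusion was chosen after the data were seen.

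**Figure D3:**
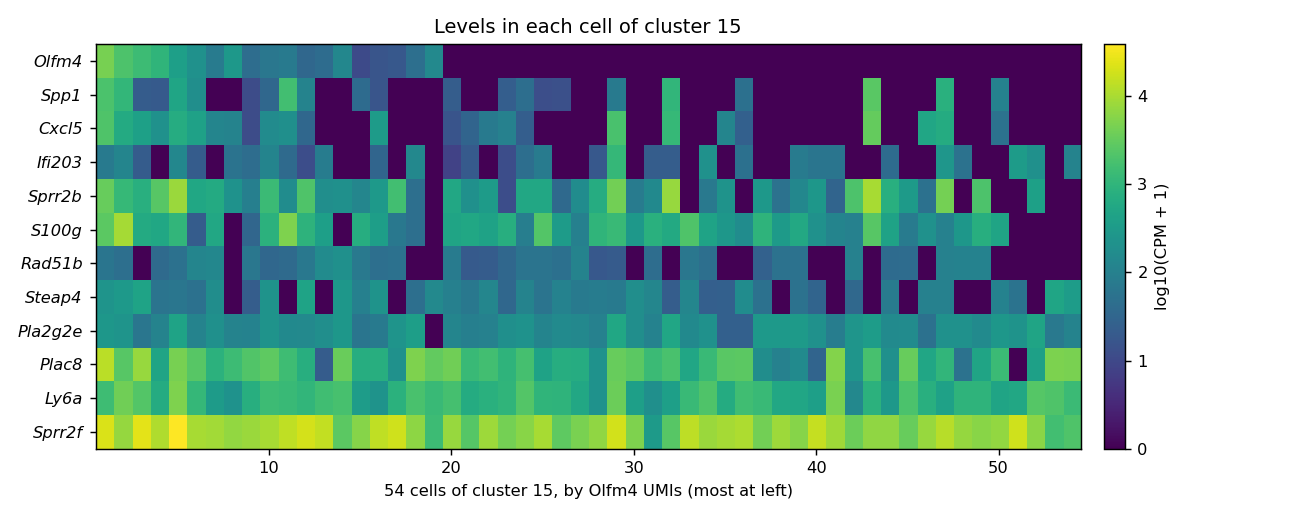
Level of 12 genes, as log10(CPM + 1), in each of the 54 cells of cluster 15, ordered by Olfm4 UMIs and then by depth (most at left). Pla2g2e, Plac8, Ly6a and Sprr2f are filled across the row, whereas Olfm4, Spp1 and Cxcl5 are empty in many cells.

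The 4 tissue sections came from other mice and were not used to form the cluster, so they allowed a test of DES against CO for the genes of cluster 15, over whole sections. In such sums fewer cells of a type and less RNA per cell cannot be told apart. The study describes a tissue fold in section CO B and a limited separation of spot clusters in section DES B. The sections held between 9117099 and 12506177 UMIs. Of 14098 genes tested with edgeR's quasi-likelihood test, 376 were higher in DES (2.67%) and 371 lower (2.63%) at a Benjamini-Hochberg adjusted p of 0.05. With section DES B left out 3 genes were called and with DES A left out 14, so most single calls below depend on having both DES sections, and an exact test of 2 against 2 sections cannot reach 0.05 (its smallest two-sided p is above it). Muscle and stromal genes also moved between the groups, and their part in the results was not tested: Myh11 was at 1855 and 1804 CPM in the CO sections and 355 and 447 CPM in the DES sections. Epcam was at 451 and 256 CPM in the CO and 435 and 501 CPM in the DES sections.

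Olfm4 was at 0.400 and 2.18 CPM in sections CO A and CO B and at 1534 and 1340 CPM in DES A and DES B. The groups did not overlap, and the log2 difference was 9.94 with an SE of 0.77 (adjusted p = 0.018 by edgeR). With either DES section left out the log2 difference was 9.87 and 9.99 and the adjusted p 0.051 and 0.058. The other 3 label genes did not pass with all 4 sections. S100g was at 313 and 547 CPM in CO and 336 and 361 CPM in DES (log2 difference -0.51, adjusted p = 0.369 by edgeR). Pla2g2e was at 67.9 and 6.44 CPM in CO and 11.5 and 12.6 CPM in DES, so that the CO sections lay on both sides of the DES sections, and Ifi203 was at 36.4 and 18.5 CPM in CO and 26.0 and 29.8 CPM in DES. Without CO A the sign of the difference turned for both genes, to 0.72 for Pla2g2e and 0.41 for Ifi203, and S100g passed as lower (log2 difference -0.84, adjusted p = 0.029 by edgeR). Without CO B, Pla2g2e passed as lower (-2.73, adjusted p = 0.0030 by edgeR).

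The 15 named higher genes were chosen for a low level in the other DES clusters relative to cluster 15. CO luminal cells were above those clusters for 11 of the 15. Their counts are therefore given as a description and not as a result about cluster 15. Of these genes, 0 were called higher in DES sections and 1, Ncoa7, was called lower by edgeR. Their median log2 difference was -1.42 against -0.01 over all genes tested. At an unadjusted p of 0.05 edgeR gave 1 higher and 5 lower, and DESeq2 called 1 higher (Tnfaip2) and 4 lower at an adjusted p of 0.05. Over all 14098 genes, edgeR gave 1632 higher (11.6%) and 1806 lower (12.8%) at an unadjusted p of 0.05. DESeq2 called 1756 of 14971 genes at an adjusted p of 0.05, 805 of them higher. Ncoa7 was at 135 and 69.4 CPM in CO and 11.4 and 10.7 CPM in DES (log2 difference -3.42, SE 0.39, adjusted p = 0.024 by edgeR). For Sprr2b and Sprr2a3 the groups overlapped, with CO A far above the other 3 sections, and for Sprr2f they did not. Sprr2b was at 261 and 6.53 CPM in CO and 7.13 and 11.8 CPM in DES, Sprr2a3 at 707 and 28.7 CPM in CO and 10.97 and 59.8 CPM in DES, and Sprr2f at 9636 and 3551 CPM in CO and 1119 and 2157 CPM in DES. None of the 3 passed the edgeR test, while Sprr2f passed with DESeq2 (log2 difference -2.22, adjusted p = 0.00034) and with edgeR without section CO B (-2.78, adjusted p = 0.022). Spp1 was at 86.8 and 15.5 CPM in CO and 562 and 128 CPM in DES, and Cxcl5 at 49.9 and 0.725 CPM in CO and 265 and 54.7 CPM in DES. For both genes the DES sections lay above the CO sections, but the adjusted p was 0.235 and 0.441 by edgeR.

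**Figure D4:**
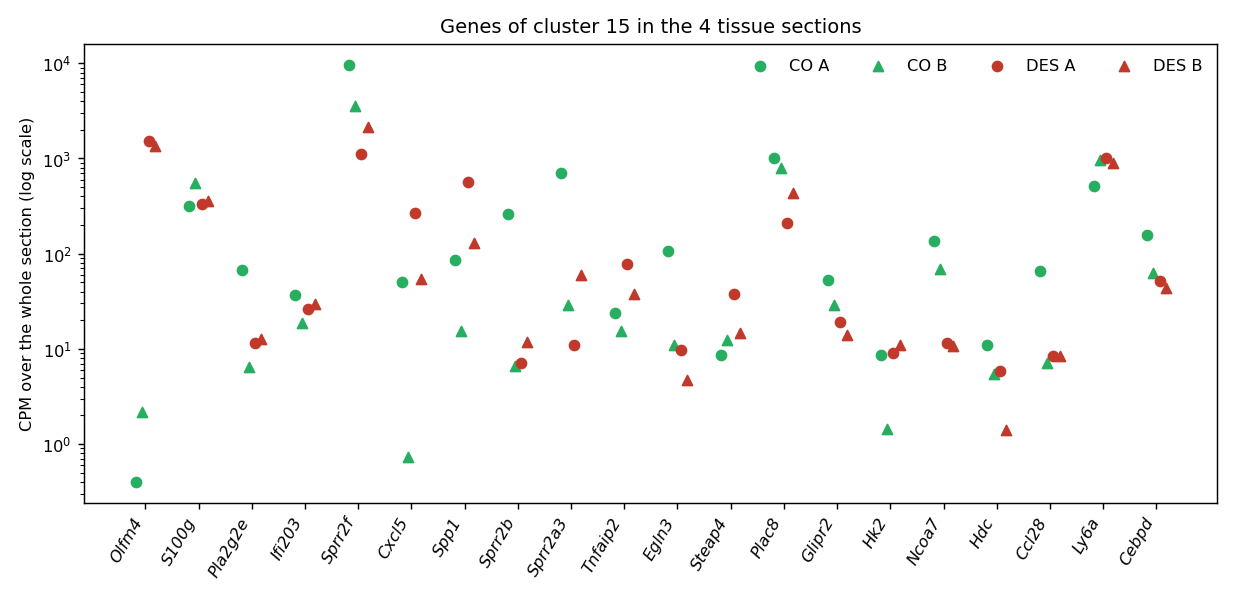
Level over the whole section (CPM, log axis) of the 4 label genes, Sprr2f and the 15 named higher genes in sections CO A, CO B, DES A and DES B. Olfm4 separates the groups (0.400 and 2.18 CPM against 1534 and 1340 CPM), whereas CO A and CO B lie far apart for Sprr2b, Sprr2a3 and Cxcl5.

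Of the 10 named lower genes, 2 were called higher in DES sections by edgeR and 0 lower (median log2 difference 3.27), against 7 and 0 at an unadjusted p of 0.05 and 7 and 0 by DESeq2. They were chosen for a high level in the other DES clusters, so their count is given as a description and not as a result about cluster 15. Lypd2 was at 4.64 and 1.45 CPM in CO and 141 and 58.0 CPM in DES (adjusted p = 0.036 by edgeR), and Dhrs3 at 120 and 177 CPM in CO and 720 and 977 CPM in DES (adjusted p = 0.028). Of the 10 genes named as lower than in cluster 5, 4 were called higher in DES sections by edgeR and 0 lower (median 4.45), against 9 and 0 at an unadjusted p of 0.05 and 9 and 0 by DESeq2. These genes entered the comparison through their high level in DES cluster 5, so their count is given as a description and not as a result about cluster 15. Tff1 was at 0.160 and 1.99 CPM in CO and 329 and 852 CPM in DES (adjusted p = 0.028), Upk1a at 0.800 and 0.906 CPM in CO and 193 and 207 CPM in DES (adjusted p = 0.008), Ccl6 at 17.4 and 43.5 CPM in CO and 215 and 265 CPM in DES (adjusted p = 0.044), and Ramp2 at 113 and 108 CPM in CO and 337 and 367 CPM in DES (adjusted p = 0.025). With either DES section left out, of these genes only Upk1a kept an adjusted p under 0.05 (0.032 and 0.025).

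The list genes that were higher in cluster 15 were mixed. They were chosen for a high level in a DES cluster, so their values are given as a description and not as a result about cluster 15. Wfdc18 and Lrmp were also higher in cluster 5 (300 and 111 CPM) than in cluster 15 (137 and 36.9 CPM). Wfdc18 was at 12.2 and 13.41 CPM in CO and 246 and 130 CPM in DES (adjusted p = 0.021 by edgeR), and the luminal gene Lrmp at 6.56 and 5.17 CPM in CO and 186 and 170 CPM in DES (adjusted p = 0.014). The class II gene H2-Aa was at 59.6 and 102 CPM in CO and 336 and 651 CPM in DES and Cd74 at 170 and 273 CPM in CO and 872 and 2317 CPM in DES, so the groups did not overlap, but neither passed (adjusted p = 0.054 and 0.069 by edgeR). The myeloid gene Lyz2 moved the same way, at 121 and 321 CPM in CO and 1500 and 738 CPM in DES, and its cells' part in the class II values was not tested. Lcn2 was at 8116 and 884 CPM in CO and 1395 and 1321 CPM in DES, between the CO sections.

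Within the DES sections, the levels of cluster 15 genes were compared between spots with at least 2 Olfm4 UMIs (845 in DES A, 846 in DES B) and spots with none (527 and 351). A spot covers several cells, spots of 1 section are not replicates, and no test was made. Epithelial genes were higher in the Olfm4 spots, with Epcam at 2.19 and 6.13 times and Cdh1 at 2.81 and 7.36 times their level in spots without Olfm4 in DES A and DES B, and the part of this difference in the values below was not tested. Spots with Olfm4 were also deeper, with 8397 against 2582 UMIs per spot in DES A and 9843 against 2685 in DES B. Cxcl5 was at 336 CPM in Olfm4 spots of DES A against 11.8 CPM in the others (28.6 times) and at 63.7 against 5.31 CPM in DES B (12.0 times, 5.11 to 37.1). Spp1 was 13.8 (10.9 to 17.7) and 7.14 (4.55 to 11.9) times higher, and Ly6a 2.18 and 2.21 times. For Sprr2b and Sprr2a3 the spots without Olfm4 held between 1 and 5 UMIs in a section, and the ratios ranged from 6.39 (1.73 to 53.4) for Sprr2b in DES B to 12.8 (5.47 to 39.7) for Sprr2a3 in DES B. Others of the named higher genes went the opposite way, with Ncoa7 at 0.32 and 0.51 times and Glipr2 at 0.31 and 0.22 times. Some differed between the sections, with Plac8 at 0.70 and 1.76 times and Ccl28 at 0.47 and 2.90 times. Steap4 was at 4.08 and 0.95 times and Tnfaip2 at 3.25 and 1.01 times. Of the label genes, S100g was at 1.68 and 1.11 times, Pla2g2e at 0.27 and 1.17 times and Ifi203 at 0.87 and 0.76 times their level in spots without Olfm4. Genes named as lower in cluster 15 were also higher in Olfm4 spots, with Krt5 at 5.29 and 4.06 times. Serpinb7 was at 5.15 and 5.88 times and Tff1 at 7.25 and 8.26 times. Among these lower genes Cyr61 went the opposite way in both sections (0.54 and 0.56 times). Lypd8 (0.77 times) and Fos (0.74 times) did so in DES A only.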

How the data were processed

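Single cells of 1 CO and 1 DES library and Visium spots of 2 CO and 2 DES sections were measured. The authors counted UMIs per gene with Cell Ranger 3.0.1 (cells) and Space Ranger 1.2.2 (spots) on mm10, per the submitters' processing notes, and the deposited counts are not normalized. In the study, doublets were removed with scran and cells were clustered with Seurat. Clusters and cell types are the authors' own. The deposited saturation is a fraction per cell and was not used. Within the 16 DES clusters, 2 cells named in the annotation had no counts. The columns of counts without a sample in this series numbered 0.

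For each group of cells, UMIs were added up per gene and expressed as CPM. A gene was compared where either group had at least 20 CPM, and a difference of at least 2-fold was counted. Ratio intervals are exact conditional binomial intervals at 95%. A group with 0 UMIs was set to a floor of 3 UMIs. Shares were computed after thinning to 3000 UMIs per cell (random seed 20230). CO luminal cells are the 2095 cells of the CO clusters that the study places in luminal epithelium. Named genes needed at least 50 CPM in either group and were the 15 highest and 10 lowest ratios against the other clusters and the 10 each way against cluster 5, with UMIs in at least 25% of the cells of cluster 15 for higher genes, and no cell with over 25% of the UMIs, or in at least 25% of the cells of the comparison group for lower genes. The cluster, the gene lists and this rule were chosen with earlier results of these data known.

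Spots were summed per section and tested with edgeR 4.0.16 (TMM, filterByExpr, quasi-likelihood, Benjamini-Hochberg adjusted p at 0.05), with DESeq2 1.42.0 as an alternative. Each section is 1 mouse. The scripts were tested on simulated data. Gene positions are from GENCODE M21 and promoter windows from RefSeq (GRCm38.p6). Python 3.11.15 and R 4.3.3 were used. A withheld item is not reported here.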

Additional observations from a re-analysis of the deposited data

How the results depend on the processing

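The counts of genes moved with the lowest level required. Against the other clusters, 75 genes were higher and 27 lower at 50 CPM, 263 and 384 at 5 CPM, and 1239 and 1042 with no filter. Against cluster 5, 112 and 130 genes were called at 50 CPM, 485 and 633 at 5 CPM, and 1529 and 1250 with no filter. The levels in cluster 15 moved as follows. Olfm4 was at 157 CPM without its top cell, 192 as a mean over cells, 322 without the 20 most abundant genes, 304 without the 14 deepest cells and 14.9 without the 6 cells with most Olfm4. S100g was at 716, 785, 1295, 821 and 679 CPM under the same settings. Pla2g2e was at 226 CPM without the 20 most abundant genes and 202 without the 14 deepest cells, and Ifi203 was at 40.1 CPM without its top cell, 75.3 without the 20 genes and 83.6 without the 14 deepest cells. Leaving out the 14 deepest cells or the 6 cells was chosen after the data were seen. Without thinning the shares of cells with a UMI were 35.2% for Olfm4, 87.0% for S100g, 98.1% for Pla2g2e and 61.1% for Ifi203, and with thinning to 5000 UMIs the Pla2g2e share was 61.1%.

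In whole sections edgeR called 747 genes and DESeq2 called 1756, and leaving out single sections gave between 3 and 2819 calls, with 2819 without CO A, 2336 without CO B, 14 without DES A and 3 without DES B. The remaining section of the group was then assumed to vary like the other group. Without CO A the log2 difference turned to 0.72 for Pla2g2e and 0.41 for Ifi203, and without CO B it was -2.73 and -0.61. The labels do not pair sections A and B of the groups, and same-lettered sections deviated with a correlation of -0.03. With a replicate block 527 genes were called, and the adjusted p of Ramp2 was 0.053.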
